A study of Mus musculus with 24 samples.

Results

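SWI/SNF enzymes are multi-subunit complexes that use ATP to move or evict nucleosomes. They occur as BAF complexes, which carry Arid1a or Arid1b, and as PBAF complexes, which carry BAF180, Arid2, Brd7 and Phf10. The ATPase is Smarca4 (BRG1) or Smarca2 (BRM) in BAF complexes and Smarca4 in PBAF complexes, and both kinds share core subunits such as Smarcb1 and Smarcc1. In T cells they act at cytokine genes and other inducible loci. The members described here are 10 genes: Pbrm1, which encodes BAF180, the other PBAF subunits Arid2, Brd7 and Phf10, the BAF subunits Arid1a and Arid1b, the ATPases Smarca4 and Smarca2, and the core subunits Smarcb1 and Smarcc1. They were found by gene symbol among the 25697 probes of the array, which stand for 17872 genes, and 6 of the 10 had probes under their symbol. Pbrm1 had 3 probes under its older symbol, 2610016F04Rik, and no probe was found for Brd7, Phf10 or Arid1b. In all 12 probes matched a member.

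RNA came from CD4+ T cells of 4 to 6 week old mice, either WT or BAF180-deficient (KO in the labels), and each of the 8 groups had 3 arrays, replicates A, B and C. In BAF180-deficient mice exon 11 of Pbrm1 was floxed and deleted by Cre from the CD4 promoter, so the deletion is limited to T cells and starts during their development. The labels give the strain as Balb/c, whereas the methods of the study describe a B6-129 mixed background. Resting Naïve cells were purified from spleen and lymph nodes with a stated purity of 95%, whereas the stimulated ones were cultured for 24 h with anti-CD3 (1 µg/ml) and anti-CD28 (2 µg/ml). Resting Th2 cells had been grown from Naïve cells on the same antibodies with IL-4 (10 ng/ml), anti-IFN-gamma (10 µg/ml) and IL-2 (100 U/ml), and stimulated Th2 cells then received PMA (50 ng/ml) and ionomycin (500 ng/ml) for 1.5 h. The replicates are described as mice, each WT animal paired with a deficient one, but the labels do not tie letters to animals or say whether the states of a letter share an animal. Because each sample is bulk RNA, fewer cells of a type and less RNA per cell cannot be told apart.

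The deposited values are bead intensities, which were corrected for background, log2 transformed and quantile normalised over the 24 arrays. A level below is this normalised log2 intensity, and a difference is between group means of it with its SE or 95% confidence interval from limma. A gene was called when its adjusted p was below 0.05 over the 14246 probes detected on at least 1 array (detection p of at most 0.02), and each gene was represented by its brightest such probe. Between 8047 and 10689 probes were detected per array. The CD4 T cell markers (Cd3d, Cd3e, Cd3g, Cd4, Lck and Cd5) were detected in all 8 groups. The summed intensity of the 6 Th2 markers was 400 to 492 on the resting Naïve arrays and 17344 to 27967 on the stimulated Th2 arrays. On the stimulated Naïve arrays it was 1132 to 2972 and on the resting Th2 arrays 1296 to 4079, so this sum does not tell these states apart. Of the 6 myeloid markers Lyz1, Lyz2, Csf1r, Cd14 and Fcer1g were detected in resting Naïve cells and Itgam on 0 arrays, and the summed intensity of that list was 1208 to 6512 there against 251 to 368 on all other arrays. The NK cell markers summed to 141 to 305 there and to 115 to 168 elsewhere. All comparisons with resting Naïve cells below are made against arrays that carry this signal, and its part in the results was not tested.

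The 3 probes of Pbrm1 lie close together on the transcript for which the array was designed, at bases 2024 to 2073, 2025 to 2074 and 2060 to 2109. They share 14 bases, 2060 to 2073. Windows of 30 bases of the probe sequences around these bases are shown because they make clear how far the 3 readouts of Pbrm1 share sequence and so are not independent, with the bases common to all in capitals.
The first probe, bases 2044 to 2073: gacacaagctgtgcctGCACATAGCTGTGC
The second probe, bases 2045 to 2074: acacaagctgtgcctGCACATAGCTGTGCa
The third probe, bases 2060 to 2089: GCACATAGCTGTGCagggtagactgcctac
The position of exon 11 on this transcript was not determined here. Whether the probes read the deleted part is therefore not known, and the signal left in deficient cells is no measure of how complete the deletion was. For the protein, the study reported that BAF180 was completely lost, with an immunoblot of Th2 cells.

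Pbrm1, the deleted gene, was lower in BAF180-deficient cells, with a call in 3 of the 4 states and in their mean. By its brightest probe, the third, the level on the 12 BAF180-deficient arrays was 6.36 to 7.88 with a median of 7.16, and on the 12 WT arrays it was 8.14 to 9.06 with a median of 8.68, so the genotypes did not overlap. Averaged over the 4 states the difference was -1.48 (95% confidence interval -1.72 to -1.24, adjusted p = 3.49e-07), which left 35.8% of the WT signal. It had the lowest p of all 14246 probes in this comparison, in which 0.309% of probes were called. The probe remained above background on every one of the BAF180-deficient arrays, with unnormalised intensities of 91.8 to 260.0 against 139 to 748 in WT cells.

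In resting Th2 cells the WT levels of Pbrm1 were 9.06, 9.06 and 8.88 and the BAF180-deficient levels were 7.16, 7.23 and 7.02. The WT arrays were all higher, by 1.86 on average (SE 0.23, adjusted p = 0.00101), and the deficient cells kept 27.5% of the WT signal. In stimulated Naïve cells the WT levels were 8.29, 8.76 and 8.67 and the deficient levels 6.36, 7.06 and 7.41, a difference of -1.63 (SE 0.23, adjusted p = 0.00746). The groups again did not overlap, though the deficient arrays were spread over more than 1 unit. In stimulated Th2 cells the WT levels were 8.52, 8.14 and 8.21 and the deficient levels 6.56, 6.90 and 7.15, a difference of -1.42 (SE 0.23, adjusted p = 0.0141). Here too every WT array lay above every deficient one. This call was lost without replicate A or B of either genotype (adjusted p = 0.0586 to 0.162), and that in stimulated Naïve cells without WT replicate B (adjusted p = 0.116).

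In resting Naïve cells the WT levels of Pbrm1 were 8.20, 8.72 and 8.69 and the deficient levels 7.88, 7.28 and 7.41. The groups did not overlap, but WT replicate A and deficient replicate A were closer to each other than any other pair of arrays across the genotypes in that state, and the difference of -1.01 (95% confidence interval -1.49 to -0.54) had an adjusted p of 0.121 and was not called. Whether the loss of signal changed between states was tested as an interaction. Between resting Th2 and resting Naïve cells it changed by -0.85 (SE 0.32, adjusted p = 1.00, unadjusted p = 0.015), upon stimulation of Naïve cells by -0.62 (SE 0.32) and upon stimulation of Th2 cells by 0.44 (SE 0.32), none of them called. An exact permutation test of 3 arrays against 3 cannot give a p below 0.1, which is the value in each of the 4 states.

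**Figure D1:**
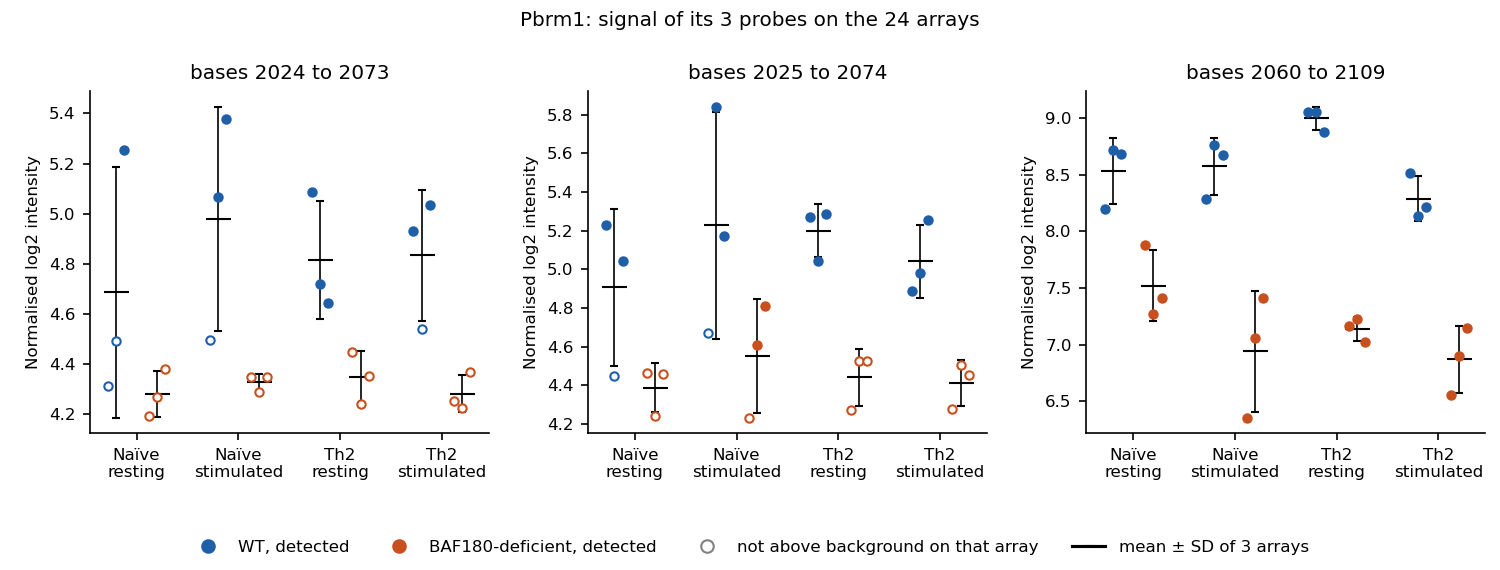
Normalised log2 intensity (y axis, a different range in each panel) of the 3 Pbrm1 probes in the 4 cell states (x axis), one point per array, WT in blue and BAF180-deficient in orange; black lines are the mean ± SD of 3 arrays and open points are arrays on which the probe was not above background. The third probe (bases 2060 to 2109) was detected on all 24 arrays and separated the genotypes in every state, while the other 2 were near background.

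The other 2 probes of Pbrm1 were dim. The first was above background on 8 of the 12 WT arrays and on 0 of the 12 BAF180-deficient arrays, at intensities of 43.3 to 74.6 and 37.5 to 48.1. The second was above background on 10 WT and 2 deficient arrays, both of stimulated Naïve cells, at 42.8 to 85.3 and 37.7 to 54.3. Where the deficient cells were below background only a bound can be given: the signal of the first probe was at least 1.27-fold lower in stimulated Naïve, 1.18-fold lower in resting Th2 and 1.12-fold lower in stimulated Th2 cells. For the second probe the bound was 1.07-fold in resting Naïve, 1.54-fold in resting Th2 and 1.30-fold in stimulated Th2 cells, and for the first probe in resting Naïve cells no bound could be given. The bounds set the mean WT level, which in some states includes arrays below background, against the lowest level at which probes were detected on the deficient arrays. Neither probe was called in a single state (adjusted p of 0.694 or more), and the second overlapped between genotypes in resting Naïve cells. In the mean of the 4 states both were called, at -0.52 (adjusted p = 0.0351) and -0.65 (adjusted p = 0.0121), with deficient levels near background.

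The order of the Pbrm1 levels put all 4 BAF180-deficient groups below all 4 WT groups, and the lowest WT group, stimulated Th2 cells at 8.29 ± 0.20 (SD, n = 3), did not overlap the highest deficient group, resting Naïve cells at 7.52 ± 0.32. Among WT cells resting Th2 cells, at 8.88 to 9.06, were highest and did not overlap the next group. Stimulated Naïve cells (8.57 ± 0.25), resting Naïve cells (8.54 ± 0.29) and stimulated Th2 cells overlapped their neighbours. Among deficient cells only resting Naïve cells stood apart from their neighbour, resting Th2 cells at 7.14 ± 0.10, which overlapped stimulated Naïve (6.94 ± 0.54) and stimulated Th2 cells (6.87 ± 0.30).

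The 5 genes whose pattern was most like that of Pbrm1, by Pearson r over the 8 group means among 7913 genes, were Ly6c1 (0.952), Sv2a (0.924), Grik2 (0.906), Heatr5a (0.896) and Mansc1 (0.893). The points share their arrays and were ranked on likeness, so these are descriptions. Over the 24 arrays r was 0.264 for Grik2, whose mean level was 4.62, and 0.647 to 0.743 for the others. The adjusted p values that follow come from the arrays used for the ranking and give no separate support. Averaged over the 4 states Heatr5a was lower in BAF180-deficient cells by 0.588 (adjusted p = 0.00323) and Mansc1 by 0.703 (adjusted p = 0.00461), whereas the differences of Ly6c1 (-1.51, adjusted p = 0.0766), Sv2a (-0.46, adjusted p = 0.105) and Grik2 (-0.14, adjusted p = 0.85) were not called. Over the same 8 means the r of Pbrm1 with the other members ran from -0.31 for Smarca4 to 0.33 for Smarcc1.

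The design allows the question whether other subunits were raised where BAF180 was missing. Of the remaining 9 members 5 could be measured: Arid2, Smarca4, Smarca2, Smarcb1 and Smarcc1. The single probe of Arid1a, the DNA-binding subunit of BAF complexes, was not above background on any of the 24 arrays, and neither was a second, dim probe of Arid2. Of the 5 measured members 0 were called by limma between genotypes in any of the 4 states, and 0 in the mean over them. At an unadjusted p below 0.05 the count was 0 in resting Naïve, stimulated Naïve and resting Th2 cells, where 6.83%, 2.25% and 3.43% of all probes passed, 1 in stimulated Th2 cells (2.79% of all probes) and 1 in the mean over states (7.52%). Calls by adjusted p were rare over all probes as well, at 0.105% in resting Naïve, 0.0211% in stimulated Naïve and 0.0281% in each of the Th2 states. The median difference of the 5 members was 0.09 in resting Naïve, -0.14 in stimulated Naïve, -0.15 in resting Th2 and 0.04 in stimulated Th2 cells, beside medians of all probes within 0.01 of 0.

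Arid2, the PBAF subunit also called BAF200, had a mean difference over the 4 states of -0.02 (95% confidence interval -0.41 to 0.38). It was the least precise of the members: on the 3 stimulated Naïve arrays of WT cells it read 5.39, 6.96 and 5.68, and on those of deficient cells 4.87, 6.54 and 6.22. Replicate B was highest in both genotypes there, and the groups overlapped. In single states the intervals for Arid2 ran from -0.94 to 1.02, so that changes of such size in either direction could not be told from none.

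Smarca4, the ATPase subunit BRG1, differed by 0.09 averaged over the states (95% confidence interval -0.09 to 0.27), the narrowest interval of the 5. Its probe was dim, with levels from 4.47 to 5.81, and was not above background on 2 WT arrays and 1 deficient array of resting Naïve cells. Smarca2, the alternative ATPase BRM, differed by -0.03 (-0.29 to 0.22), and in resting Naïve cells, where it was brightest, WT arrays read 10.37, 10.42 and 10.08 and deficient arrays 10.20, 10.55 and 10.38. Smarcb1, the core subunit also known as SNF5, differed by 0.03 (-0.23 to 0.29). Its largest single difference was 0.49 in resting Naïve cells (SE 0.25, adjusted p = 0.788), where WT replicate A, at 4.35, was below background and the other WT arrays, at 5.48 and 5.87, overlapped the deficient arrays at 5.66, 5.52 and 5.98.

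Smarcc1, the scaffold subunit BAF155, was the only one of the 5 with a difference in the same direction in every state and an unadjusted p below 0.05 in the mean over states (0.0012). Its differences were -0.28 in resting Naïve, -0.35 in stimulated Naïve, -0.46 in resting Th2 and -0.57 in stimulated Th2 cells, and averaged -0.42 (95% confidence interval -0.65 to -0.19, adjusted p = 0.137). In resting Th2 cells WT arrays read 6.34, 5.97 and 6.39 and deficient arrays 5.80, 5.81 and 5.72, without overlap. In stimulated Th2 cells the WT levels of 6.44, 6.25 and 6.61 overlapped the deficient levels of 5.66, 6.32 and 5.61. The difference was thus not called. It passed limits taken from the study's methods (Z-ratio beyond 1.5, FDR below 0.3, p below 0.05), as did 2.13% of all probes. These limits were applied to the limma values of the normalised levels, whereas the study used Z-scores, and its criterion of a positive signal was not applied. The difference was called when arrays were weighted by quality (adjusted p = 0.0334). With the replicate letter as a block its adjusted p was 0.0889. With Z-scores the adjusted p was 0.235, and leaving out 1 array gave 0.063 to 0.267. A dim second probe of Smarcc1 was above background on only 5 of the 24 arrays and gives no measure of the difference.

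Groups without overlap between genotypes were seen for Pbrm1 in all 4 states and, among the other 5 members, for Arid2 and Smarcc1 in resting Th2 cells. Over all probes such separation occurred in 7.99% in resting Naïve, 6.46% in stimulated Naïve, 10.1% in resting Th2 and 7.31% in stimulated Th2 cells.

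**Figure D2:**
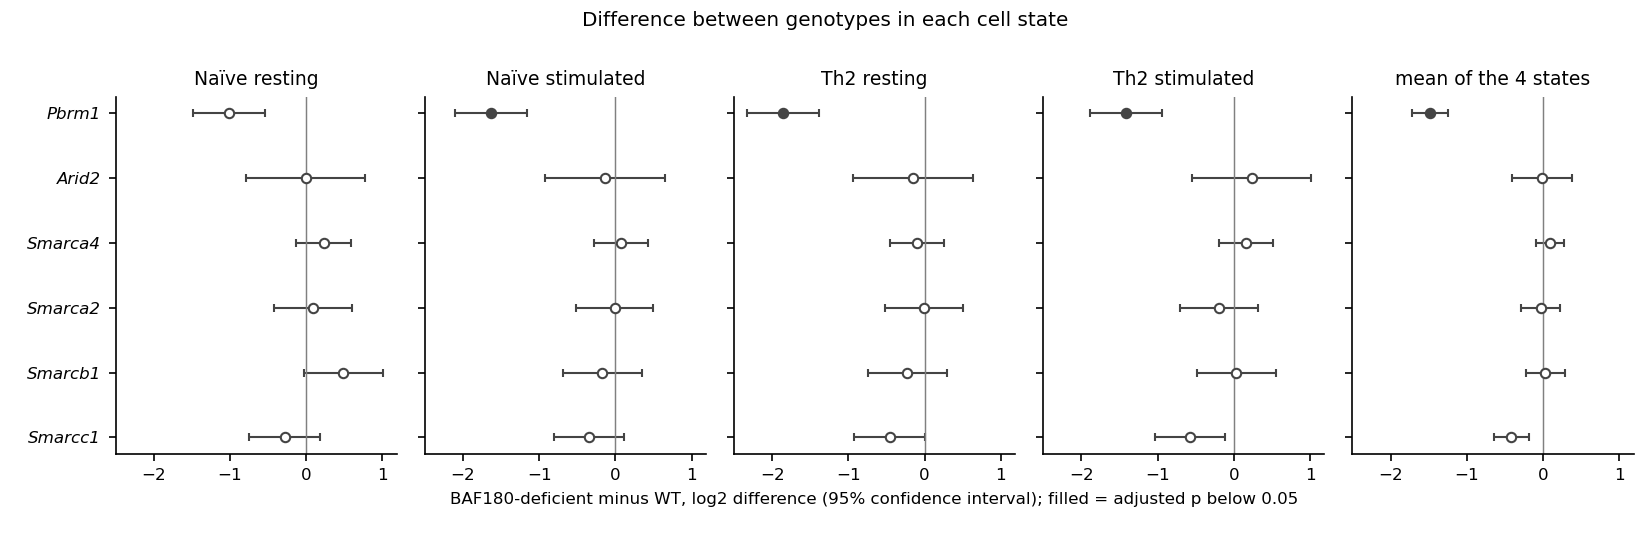
Difference between BAF180-deficient and WT cells (x axis, log2) of the 6 detected members (y axis) in each cell state and in the mean of the 4 states; points are the limma estimates, bars the 95% confidence intervals, and filled points have an adjusted p below 0.05. Pbrm1 lies left of 0 in every panel, and the intervals of the other members include 0 except those of Smarcc1 in stimulated Th2 cells and in the mean.

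A list of 20 further SWI/SNF subunits was read in the same way. It comprised paralogs of the core subunits (Smarcc2, Smarcd1, Smarcd2, Smarcd3), Smarce1, the actin-related Actl6a and Actl6b, and accessory subunits of the Dpf, Bcl7, Bcl11, Ss18, Brd9 and Bicra families. Probes were found for 18 of them and 15 had a probe above background on at least 1 array. Some were near background: of the 24 arrays Ss18l1 was detected on 1, Bicra on 2, Dpf1 on 3, Actl6b on 7 and Smarcd1 on 9. For these genes the differences are mostly between background readings, and the lack of a call says little. Between genotypes 0 of the 15 were called by limma in any state or in the mean over states, and at an unadjusted p below 0.05 the only one was Bcl11a in resting Naïve cells (0.48, SE 0.18, adjusted p = 0.584). Their median difference lay between -0.11 and 0.05 in the 4 states, and single genes ranged from -0.31 to 0.48.

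**Figure D3:**
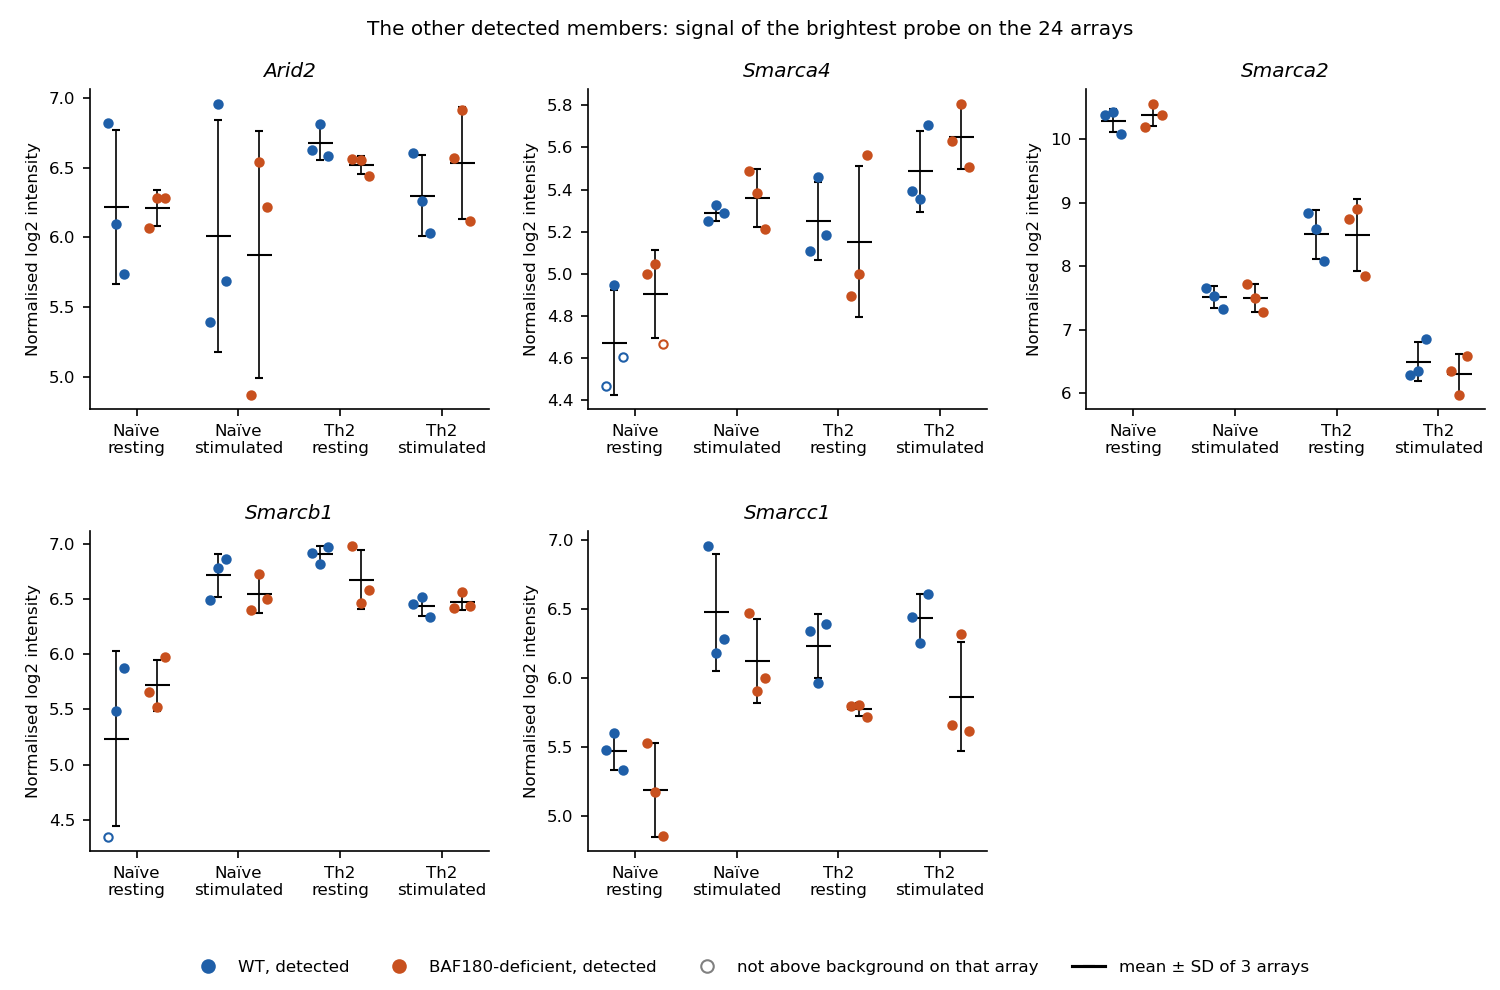
Normalised log2 intensity (y axis, a different range in each panel) of the brightest probe of the 5 other detected members in the 4 cell states (x axis), one point per array, WT in blue and BAF180-deficient in orange; black lines are the mean ± SD of 3 arrays and open points are arrays below background. The genotypes overlap in most panels and states, the exceptions being Arid2 and Smarcc1 in resting Th2 cells, while Smarca2 is highest in resting Naïve cells and Smarcb1 and Smarcc1 are lowest there.

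Upon stimulation Smarca2 fell in both cell types and both genotypes, and in Naïve cells Smarca4, Smarcb1 and Smarcc1 rose. Each comparison was made within a genotype. Upon stimulation of WT Naïve cells 3 of the 6 measured members rose and 1 fell, where 23.6% of all probes rose and 20% fell. In BAF180-deficient Naïve cells 3 rose and 2 fell (22.3% and 19.3% of all probes). In Th2 cells 0 rose and 2 fell in WT cells (13% and 14.3% of all probes), and 1 rose and 1 fell in deficient cells (12% and 13.8%).

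Smarca2 had the largest change of the members. In resting WT Naïve cells it read 10.37, 10.42 and 10.08 and after stimulation 7.66, 7.54 and 7.32, so that the lowest resting array was far above the highest stimulated one. It fell by 2.78 (SE 0.24, adjusted p = 1.38e-08), to 14.5% of the resting signal on the normalised scale. The mean unnormalised intensities, which include background, were 614 in resting and 215 in stimulated WT Naïve cells. In deficient Naïve cells the resting levels of 10.20, 10.55 and 10.38 became 7.71, 7.50 and 7.27, and the difference was -2.88 (SE 0.24, adjusted p = 8.98e-09). In WT Th2 cells 8.83, 8.59 and 8.08 became 6.29, 6.35 and 6.86 within 1.5 h, a fall of 2.00 (SE 0.24, adjusted p = 2.77e-06), to 25% of the resting signal. In deficient Th2 cells it fell by 2.19 (SE 0.24, adjusted p = 1.05e-06), from 8.73, 8.89 and 7.84 to 6.34, 5.97 and 6.59. The genotypes overlapped at every step, and the interaction of genotype with stimulation was -0.10 (SE 0.35) in Naïve and -0.19 (SE 0.35) in Th2 cells, neither called.

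The array has 2 probes for Smarca2, both on chromosome 19 in the coordinates of the file, whose genome build is not given in the sources used here: the brighter at 26852604 to 26852653 and the other at 26790612 to 26790661. The dimmer probe showed the same directions upon stimulation. It fell by 1.87 (SE 0.14) in deficient Naïve cells and by 0.97 (SE 0.14) in WT Th2 cells, with adjusted p of 1.74e-09 and 2.02e-05. It was above background on 2 of the 3 stimulated arrays of those Naïve cells and on 1 of those of the Th2 cells. In WT Naïve cells it was not above background on any stimulated array, and the fall was at least 3.81-fold (adjusted p = 5.01e-10). In deficient Th2 cells it was likewise below background after stimulation, and the fall was at least 1.81-fold (adjusted p = 5.14e-06). Between genotypes this probe did not overlap in stimulated Naïve cells, where WT arrays read 4.48 to 4.62 and deficient arrays 4.65 to 4.88. The difference was not called, and 6.46% of all probes separated the genotypes in that state.

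Smarcb1 rose in stimulated Naïve cells. In WT cells the resting levels of 4.35, 5.48 and 5.87 became 6.49, 6.78 and 6.86, a rise of 1.48 (SE 0.25, adjusted p = 5.88e-05), and without the resting array below background, replicate A, the rise was 1.04. In deficient cells 5.66, 5.52 and 5.98 became 6.40, 6.73 and 6.50, a rise of 0.82 (SE 0.25, adjusted p = 0.0108), which missed the threshold without resting deficient replicate B (adjusted p = 0.0505). No array of one group overlapped the other in either genotype. In Th2 cells the difference was -0.47 (SE 0.25, adjusted p = 0.192) in WT and -0.20 (SE 0.25, adjusted p = 0.652) in deficient cells. The interaction in Naïve cells was -0.66 (SE 0.35, adjusted p = 1.00).

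Smarcc1 rose in Naïve cells of both genotypes by similar amounts, 1.01 (SE 0.22, adjusted p = 0.000884) in WT and 0.94 (SE 0.22, adjusted p = 0.00168) in deficient cells. In WT cells 5.48, 5.60 and 5.33 became 6.96, 6.18 and 6.28, and in deficient cells 5.53, 5.17 and 4.85 became 6.47, 5.90 and 6.00. The stimulated arrays were above all resting arrays of their genotype. In Th2 cells the differences of Smarcc1 were 0.20 (95% confidence interval -0.26 to 0.66) and 0.09 (-0.37 to 0.55).

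Smarca4 rose by 0.62 (SE 0.17, adjusted p = 0.00598) in WT and by 0.46 (SE 0.17, adjusted p = 0.0372) in deficient Naïve cells, from levels near background. The resting WT levels were 4.47, 4.95 and 4.60, of which only the second was above background, and the stimulated levels were 5.25, 5.33 and 5.29. Thus the ATPases moved in opposite directions in Naïve cells: Smarca4 was higher and Smarca2 lower after stimulation. In Th2 cells Smarca4 rose by 0.50 (SE 0.17, adjusted p = 0.0374) in deficient cells, where 4.89, 5.0 and 5.56 became 5.63, 5.81 and 5.51 with overlap, and differed by 0.24 (SE 0.17, adjusted p = 0.379) in WT cells. The call in deficient Th2 cells was lost without replicate A or B of the resting or the stimulated cells (adjusted p = 0.0777 to 0.194), that in deficient Naïve cells without resting replicate C or stimulated replicate A or B (adjusted p = 0.0864 to 0.163), and the interaction in Th2 cells of 0.26 (SE 0.24) was not called. With arrays scaled to a common median in place of quantile normalisation all calls of Smarca4 were lost (adjusted p = 0.0768 to 0.331), as they were with Z-scores (adjusted p = 0.0599 to 0.28), and without background correction that in deficient Naïve cells was lost (adjusted p = 0.052), with the direction kept in each.

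Arid2 was not called upon stimulation, with differences from -0.38 to 0.01 (SE 0.38 each) whose signs depended on the scaling. Pbrm1 itself fell by 0.71 (SE 0.23, adjusted p = 0.0232) upon stimulation of WT Th2 cells, from 9.06, 9.06 and 8.88 to 8.52, 8.14 and 8.21, without overlap. This call was lost without replicate A or B of the resting or replicate B or C of the stimulated cells (adjusted p = 0.065 to 0.0863) and with median scaling (adjusted p = 0.28), with the direction kept. In deficient Naïve cells what remained of the Pbrm1 signal changed by -0.58 after stimulation (SE 0.23, adjusted p = 0.0451), a difference between overlapping groups that was called only narrowly: it was -0.29 without stimulated replicate A and -0.41 without resting replicate A (adjusted p = 0.298 and 0.214), lost its call without resting replicate C or stimulated replicate B as well, was -0.09 with median scaling (adjusted p = 0.793) and turned to 0.38, beside a median of all probes of 0.30, when arrays were not scaled to each other.

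The change of Pbrm1 in WT Naïve cells also depended on how arrays were brought to one scale. The unnormalised intensities were 139, 220 and 310 in resting and 372, 364 and 541 in stimulated cells, all higher after stimulation, yet the quantile normalised levels differed by 0.04 (95% confidence interval -0.43 to 0.51, adjusted p = 0.915). With median scaling the difference was 0.65 beside a median of all probes of -0.17, and without scaling 1.08 beside 0.26, and neither was called. Median scaling moved the median of all probes by over 0.1 from 0 in 5 of the 6 comparisons between states, to between -0.17 and 0.20. Relative to these medians, the directions of all calls in Smarca2, Smarca4, Smarcb1 and Smarcc1 were kept under Z-scores, quantile normalisation without background correction, median scaling and no scaling, and of the called differences of the 6 members that of Pbrm1 in deficient Naïve cells alone changed sign, with median scaling and without scaling.

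**Figure D4:**
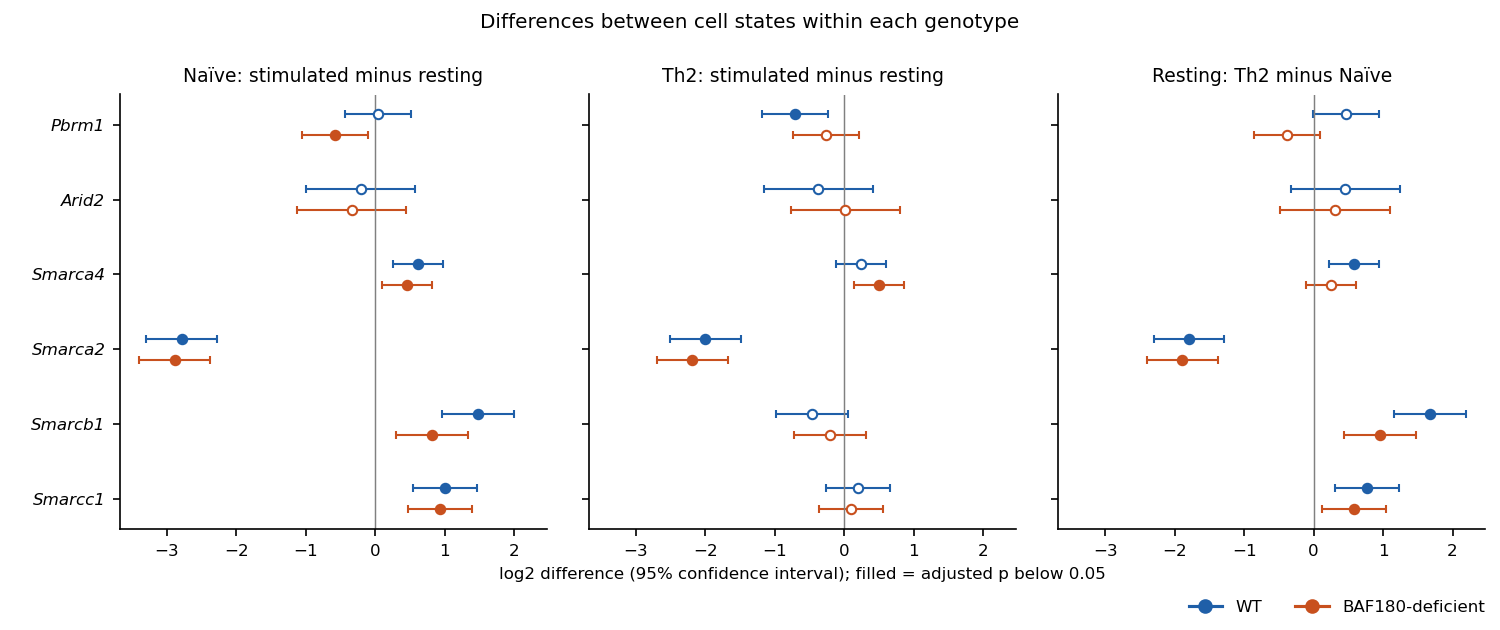
Log2 difference (x axis) of the 6 detected members (y axis) upon stimulation of Naïve cells, upon stimulation of Th2 cells and between resting Th2 and resting Naïve cells, WT in blue and BAF180-deficient in orange; points are limma estimates, bars 95% confidence intervals, and filled points have an adjusted p below 0.05. Smarca2 lies far left of 0 in all panels and Smarcb1 right of 0 in the outer ones, and the intervals of the genotypes overlap for every member.

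Resting Th2 cells, which were grown from Naïve cells, differed from resting Naïve cells in Smarca2, Smarcb1 and Smarcc1 in both genotypes, and in Smarca4 in WT cells. In WT cells 3 of the 6 were higher and 1 lower in Th2 cells, where 18.4% and 16% of all probes were, and in deficient cells 2 were higher and 1 lower (18.8% and 15.9%). These comparisons use the same resting Naïve arrays as the stimulation of Naïve cells and the same resting Th2 arrays as that of Th2 cells, so they are not independent of the values above. Smarca2 was lower in Th2 cells with differences of -1.79 in WT (SE 0.24, adjusted p = 9.06e-06) and -1.89 in deficient cells (SE 0.24, adjusted p = 4.73e-06), at 28.9% and 27% of the Naïve signal. Its levels thus ran from resting Naïve (10.29 in WT, 10.38 in deficient cells) through resting Th2 (8.50 and 8.49) and stimulated Naïve (7.51 and 7.49) to stimulated Th2 cells (6.50 and 6.30). In this order each step separated all arrays by normalised level, whereas the genotypes overlapped within each state. The unnormalised intensities overlapped between the resting cell types. In WT cells they were 489.3 to 717.5 in Naïve and 267.6 to 642 in Th2 cells, and in deficient cells 572 to 942 and 422.5 to 780.8.

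Smarcb1 was higher in resting Th2 cells by 1.67 in WT (SE 0.25, adjusted p = 2.56e-05) and by 0.95 in deficient cells (SE 0.25, adjusted p = 0.00519), with WT levels of 6.92, 6.82 and 6.97. The WT difference includes resting Naïve replicate A, which was below background, and leaving out 1 array gave 1.23 to 2.00. Smarcc1 was higher by 0.76 in WT (SE 0.22, adjusted p = 0.0108) and by 0.59 in deficient cells (SE 0.22, adjusted p = 0.0453). The latter lost its call when any of the 3 Th2 arrays or replicate B or C of the Naïve cells was left out (adjusted p = 0.0822 to 0.19). Smarca4 was higher by 0.58 in WT cells (SE 0.17, adjusted p = 0.0126), a call lost without Naïve replicate A (adjusted p = 0.0653) or Th2 replicate B (adjusted p = 0.0661), and differed by 0.25 in deficient cells (SE 0.17, adjusted p = 0.281).

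Pbrm1 differed between resting Th2 and resting Naïve cells by 0.46 in WT (SE 0.23, adjusted p = 0.125), with every Th2 array above every Naïve array. With median scaling it was 0.83 and called (adjusted p = 0.0228), beside a median of all probes of -0.17. In deficient cells the difference was -0.39 (SE 0.23, adjusted p = 0.201), with every Th2 array below, but it was 0.09 with median scaling. Neither was called after quantile normalisation. Arid2 differed by 0.46 in WT and 0.31 in deficient cells (SE 0.38 each) and was not called, though without scaling, where the median of all probes was 0.36 and 0.64, it differed by 1.20 and 1.41 (adjusted p = 0.0451 and 0.0114). Without scaling the differences of Smarca2 were -0.76 and -0.47 and lost their calls (adjusted p = 0.213 and 0.395).

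Interactions of genotype with stimulation or with cell type were called for 0 of the 6 members by limma. At an unadjusted p below 0.05 the counts were 0 for the stimulation of Naïve cells (2.31% of all probes), 0 for that of Th2 cells (1.8%) and 1, Pbrm1, between the resting cell types (2.72%). Over all probes 0.00702%, 0% and 0.00702% were called in these tests.

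Among the 15 further subunits measured, 1 rose and 5 fell upon stimulation of WT Naïve cells, and 2 rose and 4 fell in deficient Naïve cells. Over all probes 23.6% rose and 20% fell in WT and 22.3% rose and 19.3% fell in deficient Naïve cells. Their median difference was -0.15 and -0.22, beside 0.01 and 0.02 over all probes. Bcl11b, a zinc finger factor needed for T cell identity, fell by 1.70 (SE 0.25, adjusted p = 1.07e-05) in WT and by 1.63 (SE 0.25) in deficient Naïve cells. Bcl11a, its paralog, fell by 0.79 (SE 0.18) and 1.05 (SE 0.18), and Brd9, a bromodomain subunit of the non-canonical BAF complex, by 0.74 (SE 0.19) and 0.79 (SE 0.19). Actl6a, the actin-related subunit of dividing cells, rose by 1.17 (SE 0.25, adjusted p = 0.000552) and 1.19 (SE 0.25). It was the exception among the 4 with the lowest p, the others having fallen.

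By their brightest probes 5 of the 15 fell and 0 rose upon stimulation of Th2 cells in each genotype. Over all probes 14.3% fell and 13% rose in WT cells, and 13.8% fell and 12% rose in deficient cells. The 4 with the lowest p were in both genotypes Brd9 (-1.09 in WT and -0.88 in deficient cells), Bcl7a (-1.16 in both), Smarcd2 (-0.81 and -0.61) and Smarce1 (-0.81 and -0.80), with adjusted p from 0.000191 to 0.0142. Smarcd2 and Smarce1 are core subunits shared by BAF and PBAF complexes. A second, dimmer probe of Ss18, above background on all 24 arrays, was higher after stimulation without overlap. Its mean level was 6.32 in resting and 7.23 in stimulated WT Th2 cells, and 6.29 and 7.08 in deficient ones. The brightest probe of Ss18 had means of 8.98 and 9.25 in WT and 8.87 and 9.12 in deficient Th2 cells. Between resting Th2 and resting Naïve cells 2 were higher and 4 lower in WT cells, and 2 higher and 3 lower in deficient cells, beside 18.4% higher and 16% lower of all probes in WT and 18.8% and 15.9% in deficient cells. Bcl11a was not above background in Th2 cells and was at least 1.88-fold higher in Naïve cells of WT and 2.66-fold of deficient mice (adjusted p = 1.01e-05 and 1.61e-07). B cells express Bcl11a as well, and the B cell markers Cd79a, Cd79b and Blk were higher on the resting Naïve arrays too: in WT cells Cd79a had a mean level of 6.53 there and 4.85 in resting Th2 cells, Cd79b 8.16 and 6.17 and Blk 6.26 and 4.94, while Ms4a1 was detected on 1 of the 24 arrays. Their part in the result was not tested. Bcl7a was lower in Th2 cells by 1.12 (SE 0.21) and 0.98 (SE 0.21), and Bcl11b by 1.02 (SE 0.25) and 1.01 (SE 0.25). Higher in Th2 cells were Actl6a, by 0.94 (SE 0.25) in WT cells, and Smarcc2, the BAF170 paralog of Smarcc1, by 1.07 (SE 0.20) in deficient cells. Each went the same way in the other genotype. Actl6a had mean levels of 6.58 in resting Naïve and 7.48 in resting Th2 cells of deficient mice, and Smarcc2 5.31 and 5.89 in WT mice. In the interaction of genotype with resting cell type 0 of the 15 were called.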

How the data were processed

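Gene expression was measured in total RNA of 24 samples on Illumina MouseRef-8 v2 BeadChips. Per the file headers the deposited values are mean bead intensities per probe with a detection p-value against negative controls, neither background-subtracted nor normalised, from GenomeStudio (version 1.6.0 in the submitters' processing notes). The members and gene lists were chosen with earlier results of these data known. Symbols were updated through RefSeq gene tables by Entrez ID (16938 probes), accession (7420), symbol (465) or synonym (552).

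Intensities were normalised with neqc (limma 3.58.1, R 4.3.3, offset 16), which infers the background from detection p-values, takes log2 and quantile normalises all arrays. The 14246 probes (10419 genes) detected at 0.02 or below on any array were fitted with 8 group means (lmFit, eBayes), and p-values were adjusted by Benjamini-Hochberg over all of them. Depth is set by the number of arrays, 3 per group. The fit was tested on simulated data. All members were named by their brightest probe, other probes where sign or call differed and they were above background, further subunits where called (at most the 4 with the lowest p per comparison), and the 5 genes most like Pbrm1. Bcl11a in resting Naïve cells was named outside this rule, after its values were seen. No pair of replicate arrays shared over 0.973% of intensities.

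A legend of the study describes the arrayed mice as 3 pairs, each of both genotypes, without tying letters to pairs. WT and BAF180-deficient arrays of one letter deviated together (pooled r over the 4 states 0.301 for A, 0.136 for B, 0.516 for C, though 2 of 12 values within a state were below 0.1), so letters were read as pairs and used as a block in an alternative fit. Other alternatives were Z-scores, quantile normalisation without background correction, no or a stricter detection filter, fewer arrays in the fit, array weights and normalisation within a state. Further ones were the study's limits of Z-ratio, FDR and p applied to the limma values, the mean of a gene's probes and leaving out each array. Median scaling and no scaling were added after seeing the data.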

Additional observations from a re-analysis of the deposited data

How the results depend on the processing

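In the mean of the 4 states Pbrm1 was lower in BAF180-deficient cells under every alternative, with 1 lost call, without scaling between arrays (-1.35, adjusted p = 0.14), where resting Th2 cells gave -1.28 (adjusted p = 0.630). In stimulated Naïve cells the call was lost with arrays normalised within the state (-1.68), with the compared arrays alone in the fit (-1.63) and without scaling (-1.53), and leaving out 1 array gave -1.86 to -1.34. In stimulated Th2 cells it was lost with Z-scores (-1.02), the mean of the probes (-0.87), normalisation within the state (-1.45), no filter or only the compared arrays (-1.42 each) and no scaling (-1.77), and leaving out 1 array gave -1.55 to -1.26. Fewer arrays in a fit leave fewer degrees of freedom; for the other settings the cause was not tested. Pbrm1 upon stimulation of deficient Naïve cells was 0.38 without scaling, a setting in which the median of all probes was 0.30.

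The 5 members called upon stimulation of deficient Naïve cells became 3 with Z-scores, median scaling, no filter, no scaling or only the compared arrays. They became 1 by the study's limits of Z-ratio, FDR and p, and 3 to 5 when 1 array was left out. The 2 called upon stimulation of deficient Th2 cells became 1 under each of these 6 settings and 1 to 2 when 1 array was left out. The 2 in WT Th2 cells became 1 by those limits, with Z-scores, the mean of the probes, median scaling and no scaling. They became 1 to 2 when 1 array was left out. By those limits the calls were 2 of the main 4 upon stimulation of WT Naïve cells. Between resting cell types they were 2 of 4 in WT and 1 of 3 in deficient cells. The other members called in the genotype mean became 1, Smarcc1, by those limits and with array weights.

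With the replicate letter as a block none of the 40 results compared changed its call, and the mean difference of Pbrm1 stayed at -1.48 (adjusted p = 9.06e-07). With the letter within genotype as the block, the call of Pbrm1 upon stimulation of deficient Naïve cells was lost (adjusted p = 0.0548). Requiring detection on all 3 arrays of a group changed no call among the 40 results. With 3 arrays a group, the median SE of a difference between 2 groups was 0.19. A probe below background (the dimmer ones of Pbrm1 and Smarcc1 on many arrays) gives a bound at best.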
